A study of Mus musculus with 30 samples.

Results

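MicroRNA levels of the abdominal aorta were compared with those of mesenteric fat in mice kept on normal chow. The comparison took the samples titled as aorta on chow (AA-NCD, 3 samples) and as mesenteric adipose tissue on chow (MAT-NCD, 5 samples), which are 8 of the 30 samples of the series. All 8 came from male C57BL6 mice, an inbred laboratory strain, that ate normal chow freely from 4 to 20 weeks of age, and the tissue was snap-frozen. No other treatment or allele is labelled for them. A second set of 3 aortas and 5 fat samples came from mice given a diet with 60% fat over the same weeks. It served to repeat the tissue comparison and to test whether the tissue difference changed with diet. Its samples also entered the choice of microRNAs tested and the estimate of the spread. The labels number the samples without naming the animals they came from. A p-value here therefore weighs a difference against the spread between samples, and that spread may be technical. Every aorta has the letter C in its description and every fat sample the letter A, so tissue and letter cannot be told apart. Of the 626 rows of the deposited table, 566 are mouse microRNAs, and each was read in 2 ways. The first is its signal as deposited, and the second is its share, the signal as a percent of all mouse microRNA signal in the same sample.

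MicroRNAs are short RNAs that lower the output of messenger RNAs carrying a match to the seed, bases 2 to 8 of the mature microRNA. MicroRNA genes often sit in clusters that are transcribed together, and microRNAs with the same seed share many targets and are counted as a family. The wall of the aorta is built mainly of smooth muscle cells, whose known markers are miR-143 and miR-145, lined by endothelium, whose marker is miR-126. Mesenteric fat surrounds the vessels and lymph nodes that serve the gut and holds adipocytes, a dense bed of small vessels and many leukocytes, which carry miR-142, miR-150 and miR-223.

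The mature sequences on which the comparison turns are given first, from RefSeq (GRCm38.p6), written 5′ to 3′ with the seed in capitals. Of 175 microRNAs tested, 135 matched a RefSeq mature sequence, with names that carry no arm read as the major arm. The first set shows markers of endothelium and of leukocytes, the cell types compared below.
miR-126-3p: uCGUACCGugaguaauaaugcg
miR-142-3p: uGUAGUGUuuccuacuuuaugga
miR-142-5p: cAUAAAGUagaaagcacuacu
miR-223: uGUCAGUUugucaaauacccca
The mature miR-126-3p lies at chr2:26591402-26591423 on the plus strand, within the coding gene Egfl7. The arms of miR-142 lie at chr11:87756867-87756887 (5p) and chr11:87756903-87756925 (3p) on the plus strand, in no coding gene, and miR-223 lies at chrX:96242884-96242905 on the plus strand, also in none.

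The second set shows microRNAs whose share was higher in the aorta. miR-27a and miR-27b have the same seed, and miR-23a is the neighbour of miR-27a in its cluster.
miR-27a: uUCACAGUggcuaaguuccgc
miR-27b: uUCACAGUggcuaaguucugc
miR-23a: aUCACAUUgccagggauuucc
miR-199a-3p: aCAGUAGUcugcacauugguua
miR-23a lies at chr8:84208563-84208583 and miR-27a at chr8:84208727-84208747, both on the plus strand and in no coding gene. miR-27b lies at chr13:63300760-63300780 on the plus strand, within the coding gene Aopep.

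The third set shows families whose share was lower in the aorta, the first with the seed AAAGUGC (miR-17 family) and the second with the seed AGCAGCA (miR-15/16 family).
miR-17: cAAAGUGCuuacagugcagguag
miR-20a: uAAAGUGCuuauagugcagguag
miR-106b: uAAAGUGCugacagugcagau
miR-93: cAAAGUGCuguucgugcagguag
miR-15b: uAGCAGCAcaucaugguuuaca
miR-16: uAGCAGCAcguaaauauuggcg
miR-195: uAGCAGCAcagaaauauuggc
miR-322: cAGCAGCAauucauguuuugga
The fourth set is the pair miR-193 and miR-193b, which share a seed and lay in opposite directions between the tissues. miR-193 lies at chr11:79712009-79712030 and miR-193b at chr16:13449570-13449591, both on the plus strand and in no coding gene.
miR-193: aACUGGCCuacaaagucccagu
miR-193b: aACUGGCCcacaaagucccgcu

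Aorta and fat differed first in how the signal was spread over the microRNAs. The summed mouse microRNA signal was 287152, 180695 and 174770 in the 3 aortas and 270569 to 351783 in the 5 fat samples, with aorta replicate 1 inside the range of fat. In the aortas 116, 98 and 90 microRNAs lay over the detection limit of 29.8 (the mean plus 2 SD of the negative controls), against 142 to 160 in fat, with no overlap. The 10 most abundant microRNAs took 71.2% ± 3.26 (SD, n = 3) of the signal in aorta and 54.7% ± 3.37 (n = 5) in fat. The effective number of microRNAs, the exponential of the Shannon entropy of the shares, was 20.5 ± 2.56 (n = 3) in aorta and 41.2 ± 4.83 (n = 5) in fat. Each of these 3 measures separated the groups, with a two-sided exact permutation p of 0.0357, the smallest that 3 against 5 allows, and 0.0446 after adjustment over 5 measures. The summed signal itself had an exact p of 0.0714. The tissue pieces hold mixed cells, and fewer cells of a type and less RNA per cell cannot be told apart in them.

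Aorta replicate 1 and fat replicate 5 stood apart from their groups. The factor by which the authors multiplied each sample was 2.40 in aorta replicate 1, against 0.934 and 0.789 in the other aortas and 0.890 to 1.27 in fat. With this factor taken out, the sum of the positive ligation controls, artificial RNAs that report the step joining a tag to each microRNA, was 27270 in aorta replicate 1, 5963 and 9730 in replicates 2 and 3, and 25933 to 34345 in fat. The messenger RNA control B2m, part of the class I antigen complex of nucleated cells, read 675 to 923 in the aortas and 3916 to 7276 in fat. Fat replicate 5 had the largest share in a single microRNA, 20.2% against 8.58% to 13.6% in the other fat samples. Correlations of log2 values between samples of 1 group were 0.944 to 0.973 in aorta and 0.924 to 0.970 in fat.

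As deposited signal, nearly all differences ran towards fat. Of 175 microRNAs tested (those over the limit in at least 3 of the 16 samples of both diets), 128 differed at an adjusted p under 0.05 in limma, 3 higher (1.71%) and 125 lower (71.4%) in aorta, together 73.1%. The median log2 difference over all 175 was -2.10, so a call of lower on this scale was the common state of a microRNA. The 3 with a higher signal were miR-140, a microRNA abundant in cartilage, miR-27a, and miR-199a-3p, a microRNA of connective tissue cells. miR-140 read 2808, 1827 and 1694 in the aortas and 130, 280, 181, 243 and 175 in fat, a log2 difference of 3.39. miR-27a read 4535, 6851 and 4834 in the aortas and 2540 to 3652 in fat. miR-199a-3p read 3643, 4395 and 4535 in the aortas and 2046 to 2728 in fat. Every aorta exceeded every fat sample for these 3 microRNAs. When the signal was scaled to the positive controls or the authors' factor was undone, 1 microRNA remained higher and miR-27a and miR-199a-3p were no longer called. The positive controls do not carry the authors' factor, so scaling to them left that factor in the microRNA values.

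As shares, 17 microRNAs (9.71%) were higher and 107 (61.1%) lower in aorta, 70.9% in all. A microRNA could enter the test through fat samples alone, and 50 of the 107 had no chow aorta over the limit. The filter left such microRNAs little room for a call other than lower. They are part of the 61.1% beside which the lists below are set. All 3 microRNAs with a higher signal were among the 17, and the other 14 were not called on signal. All 107 with a lower share also had a lower signal, while 18 with a lower signal were not called on share, and none changed direction between the scales. The scales differ by a constant log2 offset of 0.58, and the median log2 share difference was -1.53. Shares add to 100% in each sample, so the rise of an abundant microRNA lowers all others. With the 10 most abundant microRNAs of either tissue left out of the denominator, 40 were higher and 75 lower. Among the 78 tested microRNAs over the limit in all 8 samples, the median log2 share difference was -0.32, with 15 higher, 34 lower and 29 not called. The groups did not overlap for 111 of the 124 share calls, beside 114 of all 175 tested. Calls and overlap rest on the same 8 samples, so the lack of overlap is no separate evidence.

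The balance of calls moved with the scaling. The median log2 signal difference of all 175 was -0.28 after centring each sample on its median, 0.18 after quantile normalization, -0.49 when scaled to the 100 most abundant microRNAs, -0.61 when scaled to the messenger RNA rows and -0.93 when scaled to the ligation controls. After centring, 53 were called higher and 54 lower, and after quantile normalization 49 higher and 39 lower. Of the 128 signal calls, 29 had the other sign after centring on the median, 48 after quantile normalization, 21 with the top 100, 17 with the messenger RNA rows and 10 with the ligation controls. All of these were microRNAs called lower, and none of the 3 called higher turned.

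**Figure D1:**
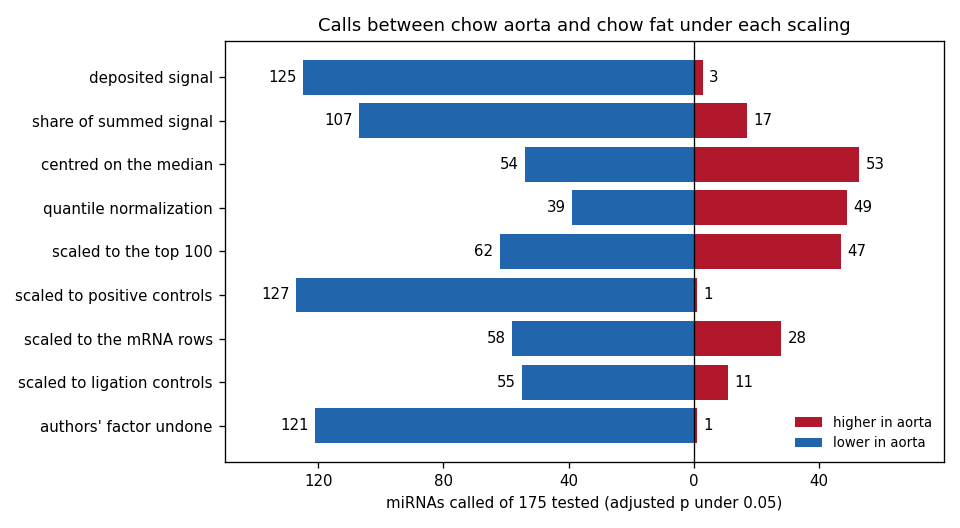
Number of microRNAs of 175 called between chow aorta (n = 3) and chow fat (n = 5) under each scaling, with those lower in aorta to the left of 0 and those higher to the right (limma, adjusted p under 0.05). The bars run from 127 lower and 1 higher when scaled to the positive controls to 39 lower and 49 higher after quantile normalization, with 125 and 3 on the deposited signal. The positive controls, unlike the microRNA values scaled to them, do not carry the authors' factor.

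The smooth muscle microRNAs miR-145 and miR-143, which come from a common transcript and keep smooth muscle cells contractile, had a higher share in aorta. miR-145 was the most abundant microRNA of both tissues by mean, at 32.2%, 28.3% and 27.5% in the aortas and 13.6%, 8.58%, 10.7%, 6.27% and 20.2% in fat. Every aorta lay above every fat sample, and fat replicate 5 came nearest. The difference was 2.67-fold (log2 1.42, 95% interval 0.43 to 2.40, limma adjusted p = 0.013). miR-143 took 6.05%, 4.92% and 5.67% in the aortas and 2.23% to 3.66% in fat, 2.07-fold (adjusted p = 0.017). On deposited signal neither was called, with adjusted p of 0.18 for miR-145 and 0.38 for miR-143. Without aorta replicate 1 the adjusted p was 0.044 for miR-145 and 0.053 for miR-143, and without fat replicate 5 it was 0.0059 and 0.012. The pair together made 33.2% to 38.2% of the signal in aorta and 8.55% to 23.9% in fat. Both list members were higher, beside 9.71% of all tested, with a median log2 of 1.23. Cultured adipocytes from mesenteric fat given buffer only (4 samples) held 2.54% to 3.59%.

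miR-140 showed the largest higher share. It made 0.978%, 1.01% and 0.969% of the signal in the aortas and 0.0435%, 0.0796%, 0.067%, 0.0833% and 0.05% in fat. The difference was 15.7-fold (log2 3.97, SE 0.27, adjusted p = 2.1e-08), and it held its call in each of the 21 alternatives, with an adjusted p of at most 0.00025. Its ratio to miR-199a-3p, which a factor per sample cannot change, was higher in aorta by 2.60 on the log2 scale. That ratio did not pass adjustment (exact permutation test, adjusted p = 0.058). Of the 9 tested mesenchymal microRNAs, those of connective tissue cells, 3 were higher and 1 lower, beside 9.71% and 61.1% of all tested. Their median log2 share difference was 0.24, which is -0.34 on deposited signal. The 3 higher were miR-140 and both arms of miR-199a. The list member that was lower was miR-21, a microRNA induced by injury and inflammation. It took 0.196%, 0.155% and 0.156% in the aortas and 0.757% to 2.01% in fat, 7.37-fold lower (adjusted p = 1.6e-06).

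**Figure D2:**
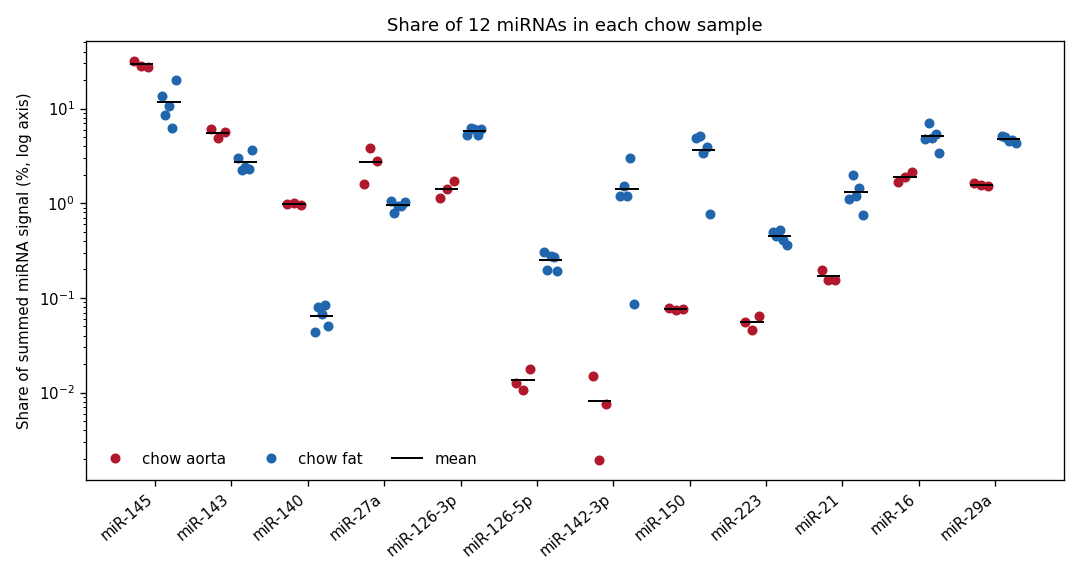
Share of summed mouse microRNA signal (percent, log axis) of 12 microRNAs in each chow aorta (n = 3) and chow fat sample (n = 5), with the mean as a bar. The groups do not overlap for any of the 12, as for 114 of all 175 tested. The fat samples spread widely for miR-142-3p, from 0.0857% to 3%, and for miR-150, from 0.779% to 5.19%.

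Most endothelial microRNAs were lower in aorta. miR-126-3p, which supports the growth and repair of endothelium, took 1.14%, 1.41% and 1.71% in the aortas and 5.22% to 6.23% in fat. All 5 fat samples were above all aortas, 4.12-fold (log2 -2.04, adjusted p = 2e-06). Its other arm, miR-126-5p, read 0.0126%, 0.0107% and 0.0175% in the aortas and 0.306%, 0.199%, 0.275%, 0.27% and 0.193% in fat. With the 1 aorta under the limit set to it, the difference of miR-126-5p was 15.9-fold. The ratio of the 3p to the 5p arm was higher in aorta by 2.10 on the log2 scale, which did not pass adjustment (exact permutation test, adjusted p = 0.058). miR-218, which lies in the guidance genes Slit2 and Slit3, was over the limit in all 5 fat samples (0.0351% to 0.0525%) and in no aorta, and was at least 3.01-fold lower. miR-322 was 8.81-fold lower with 1 aorta at the limit, and miR-10a was not called (0.479% ± 0.138 in aorta and 0.403% ± 0.0796 in fat). In all, 4 of the 5 tested list members were lower and 0 higher, beside 61.1% lower among all tested. Of these, miR-218 is also counted among the neural microRNAs below and miR-322 in the miR-15/16 family. The median log2 was -3.59, and -2.04 with low values raised to the limit. The list sum was 1.49% to 2.31% in aorta, 5.96% to 7.05% in fat and 0.276% to 0.359% in cultured adipocytes.

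Of all microRNAs tested, the leukocyte microRNA miR-142-3p had the largest log2 share difference. miR-142-3p, present in all blood cell lines, took 0.0151%, 0.00194% and 0.00762% in the aortas, and 1.21%, 1.54%, 1.21%, 3% and 0.0857% in fat. Fat replicate 5 was far below the other fat samples and still above every aorta. With the 2 aortas under the limit set to it, the share was 55.3-fold lower in aorta (log2 -7.04 as measured, adjusted p = 5.2e-05). miR-150, a microRNA of mature lymphocytes, made 0.0778%, 0.0738% and 0.0762% in the aortas and 4.89%, 5.19%, 3.37%, 3.89% and 0.779% in fat. The aortas agreed closely while fat replicate 5 again lay lowest, and the difference was 39.8-fold (log2 -5.31, adjusted p = 3.5e-05). miR-223, a microRNA of neutrophils and other myeloid cells, took 0.0552%, 0.0464% and 0.064% in the aortas and 0.359% to 0.516% in fat, an 8.02-fold difference. It varied little among the fat samples, replicate 5 included.

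miR-146a, which restrains NF-kB signalling, was 13.8-fold lower in aorta and miR-342-3p, which lies within the gene Evl, 12.9-fold lower. miR-142-5p went the other way, with 0.314%, 0.137% and 0.118% in the aortas and 0.0505% to 0.12% in fat. Its call of higher (log2 1.14, adjusted p = 0.024) was lost without aorta replicate 1 (adjusted p = 0.15) or without fat replicate 2 (adjusted p = 0.056). The arms of miR-142 were thus called in opposite directions as shares, but miR-142-5p overlapped between the groups and was not called on signal. miR-142-5p was also over the limit in all 4 cultured adipocyte samples (mean 0.274%) and miR-142-3p in none. Of 9 tested leukocyte microRNAs 6 were lower and 1 higher, beside 61.1% lower and 9.71% higher among all tested, so the share of lower calls was near that of all. The median log2 was -3.0, against -1.53. The 4 members that define leukocytes summed to 0.259% to 0.462% in aorta and 1.30% to 7.38% in fat, and all 4 had 1 or more aortas over the limit. Without aorta replicate 1 the list gave 6 lower and 0 higher, and without fat replicate 5 it gave 6 and 1.

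Of 3 tested red cell microRNAs 2 were lower in aorta, beside 61.1% of all tested. Their median log2 share difference was -1.58, near the -1.53 of all tested. miR-451, needed for red cell maturation, took 0.576%, 0.406% and 0.513% in the aortas and 0.891% to 2.17% in fat. The groups did not overlap, and miR-451 was 2.98-fold lower with an adjusted p of 0.048. The call was lost in 11 of 21 alternatives, among them leaving out any 1 aorta or fat replicate 2, 3, 4 or 5 (adjusted p = 0.079 without aorta replicate 1 and 0.084 without fat replicate 5). miR-144, from the same cluster, was over the limit in all 5 fat samples and no aorta, at least 2.76-fold lower. miR-486 overlapped between the groups (adjusted p = 0.16). The 3 members summed to 0.424% to 0.645% in aorta and 0.957% to 2.32% in fat.

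Of 15 tested microRNAs linked to adipocytes, 9 were lower and 2 higher in aorta (61.1% and 9.71% of all tested), with a median log2 share difference of -1.24, near the -1.53 of all tested, and the median turned positive after centring on the median. miR-378, which lies in the gene of a coactivator of fat metabolism, took 0.0986%, 0.0779% and 0.109% in the aortas and 0.393% to 0.478% in fat, 4.60-fold lower (adjusted p = 2.5e-07). miR-103, from the pantothenate kinase genes Pank2 and Pank3, was 5.33-fold lower, and miR-148a 2.36-fold lower. miR-193 was at or near the floor of the table in all aortas and at 0.0417% to 0.0803% in fat, at least 4.26-fold lower. Its seed partner miR-193b took 0.0268%, 0.0221% and 0.0203% in the aortas and 0.00704% to 0.017% in fat. Its share was 1.74-fold higher (adjusted p = 0.039), a call lost in 9 of 20 alternatives. miR-125b-5p, the second most abundant microRNA of both tissues, was 1.40-fold higher in aorta (10.6%, 10.1% and 11.3% against 6.17% to 9.57%, adjusted p = 0.041), a call lost when any 1 aorta or fat replicate 1, 3 or 4 was left out. In the cultured adipocytes it made 34.1% of the signal.

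Striated muscle markers were present in both tissues. miR-133a was higher in aorta, at 0.0828%, 0.146% and 0.124% against 0.0186% to 0.0759% in fat (3.39-fold, adjusted p = 0.019). miR-1, transcribed together with a copy of miR-133a, overlapped between the tissues, at 0.231% ± 0.0355 (n = 3) and 0.221% ± 0.117 (n = 5). The ratio of miR-133a to miR-1 was 1.55 higher in aorta on the log2 scale, with no overlap, and did not pass adjustment (exact permutation test, adjusted p = 0.058). The call of miR-133a was lost without aorta replicate 2 or 3. The other 5 rows of that list were not over the limit in enough samples to be tested. Markers of other organs were low in both tissues. The gut microRNA miR-194 was over the limit in all fat samples (0.0193% to 0.0399%) and in no aorta. No pancreas or liver marker was tested, and those lists summed to at most 0.015% in aorta and 0.051% in fat. Of 3 tested neural microRNAs, 3 were lower (61.1% of all tested were), none of them over the limit in any aorta, and the median log2 of -3.20 was -0.24 with low values raised to the limit. Of 4 linked to brown fat, 2 were lower and 1 higher, beside 61.1% and 9.71% of all tested. Their median of -0.22 turned sign under 6 settings. Among epithelial microRNAs, miR-203 was lower in aorta, and miR-200b and miR-205 were not called.

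**Figure D3:**
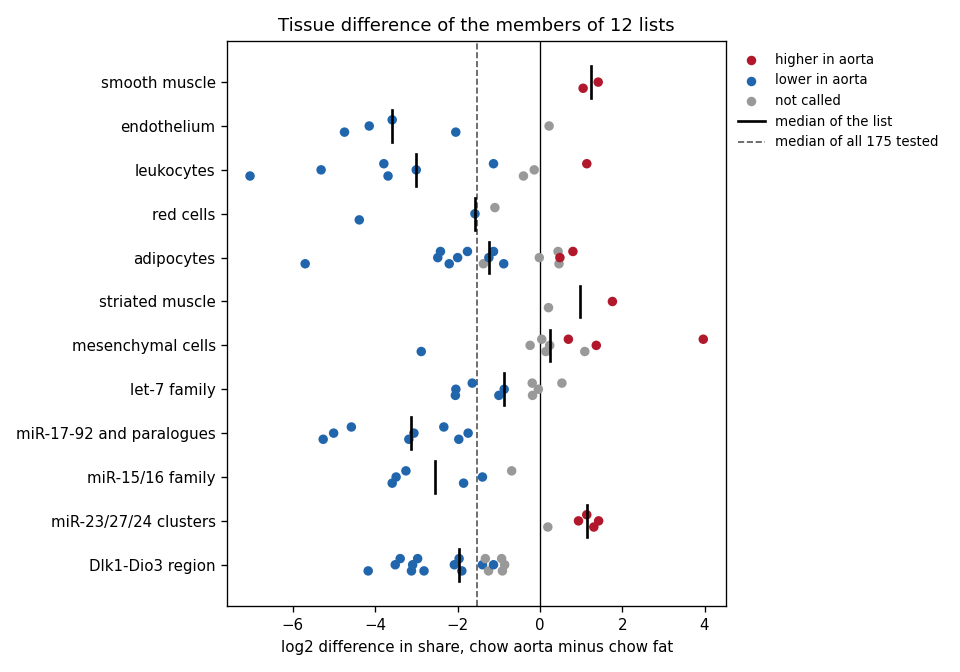
Log2 difference in share, chow aorta minus chow fat, of each tested member of 12 lists, coloured by call, with the list's median as a bar and the median of all 175 tested microRNAs (-1.53) as a dashed line. Smooth muscle, striated muscle and the miR-23/27/24 clusters lie to the right of 0. Endothelial, leukocyte, red cell, miR-17-92, miR-15/16 and Dlk1-Dio3 lists have medians left of the dashed line, that of red cells only just.

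Cluster and family lists split between the tissues. The miR-23/27/24 clusters, which act in vessel growth and in the brake on adipocyte formation, had 4 of 5 tested members higher and 0 lower. Among all tested, 9.71% were higher and 61.1% lower, and the median log2 share difference of the 5 was 1.14. miR-23a took 4.26%, 5.58% and 5.42% in the aortas and 2.25% to 2.93% in fat, 1.92-fold higher (adjusted p = 0.00083). miR-23b took 1.66%, 1.40% and 1.63% against 0.531% to 0.736%, 2.48-fold higher. miR-27a took 1.58%, 3.79% and 2.77% against 0.796% to 1.05%, 2.69-fold higher (adjusted p = 0.00014), and miR-27b was 2.20-fold higher. miR-24, the third member of both clusters, was not called (log2 0.19, named after its value was seen). The summed share of the 5 was 7.68% to 10.95% in aorta and 3.71% to 4.84% in fat.

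All 8 tested members of miR-17-92 and its paralogue clusters, which drive the growth of dividing cells, were lower in aorta, beside 61.1% of all tested. The median log2 was -3.12, and -1.86 with low values raised to the limit, since 5 of the 8 had no aorta over the limit. The row that covers miR-106a and miR-17 took 0.0502%, 0.064% and 0.0681% in the aortas and 0.169% to 0.41% in fat, 5.04-fold lower (adjusted p = 3.1e-06). miR-106b and miR-93, which lie in the replication gene Mcm7, were over the limit in all fat samples and in no aorta, at least 4.86-fold and 4.09-fold lower. miR-25 of the same gene was measured in all 8 samples and was 3.35-fold lower. miR-92a and miR-19a were under the limit in every aorta, and the miR-92a difference had the other sign once values under the limit were set to it.

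Of 6 tested members of the miR-15/16 family, which holds back cell division, 5 were lower in aorta, beside 61.1% of all tested. The median log2 of -2.55 was -1.63 with low values raised to the limit. miR-16 took 1.67%, 1.91% and 2.12% in the aortas and 3.41% to 7.09% in fat, 2.63-fold lower (adjusted p = 0.00016). miR-15b, from the same host gene Smc4 as a copy of miR-16, was 9.54-fold lower (adjusted p = 3.2e-06) and miR-195 3.61-fold lower. miR-15a overlapped between the groups (adjusted p = 0.053). In the let-7 family, which promotes differentiation, 5 of 9 members were lower, near the 61.1% of all tested, none was higher and the median log2 was -0.87, a direction that turned when signal was centred on the median or scaled to the top 100 or the messenger RNA rows. let-7a took 0.141%, 0.727% and 0.716% in the aortas and 1.59% to 1.90% in fat, and let-7b overlapped, at 1.995% to 2.98% and 2.31% to 3.06%. Members of these families differ at few bases, and whether their probes read each other was not tested. The miR-29 family, which limits collagen production, had 2 of 3 members lower, beside 61.1% of all tested. Of these, miR-29a took 1.66%, 1.56% and 1.51% in the aortas and 4.36% to 5.16% in fat (3.02-fold, adjusted p = 1.7e-06). The median of the 3 turned positive after centring on the median. Of 5 miR-30 members 2 were lower, below the 61.1% of all tested. Their median log2 of -0.55 turned positive under 5 of the other signal scalings and with the top rows left out of the denominator.

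In the Dlk1-Dio3 region, an imprinted domain with many microRNAs expressed from the maternal copy, 12 of 17 tested members were lower and 0 higher, beside 61.1% lower among all tested. The median log2 share difference was -1.96, turned sign after quantile normalization and was -0.07 with low values raised to the limit. miR-127 was over the limit in all fat samples (0.026% to 0.0337%) and in no aorta, at least 2.01-fold lower, and miR-369-3p at least 1.21-fold lower. Of the 12 lower, miR-410 was over the limit in no chow sample and miR-434-5p in 1 fat sample and no aorta. Of the 5 tested members of the Sfmbt2 cluster, 1 was lower, below the 61.1% of all tested. Their median of -1.11 turned after centring, after quantile normalization and when values below the limit were raised to it. Of 13 tested microRNAs linked to vascular disease or shear stress, 5 were higher and 7 lower, beside 9.71% and 61.1% of all tested. Their median log2 share difference of -0.57 turned under 5 other signal scalings and both other share settings. The 5 higher were miR-145, miR-143, miR-27a, miR-27b and miR-210, a microRNA induced by low oxygen. miR-210 took 0.0343%, 0.0495% and 0.0446% in the aortas and 0.016% to 0.0225% in fat. Among the lower ones, miR-34a, a target of p53, was over the limit in all fat samples and in no aorta.

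**Figure D4:**
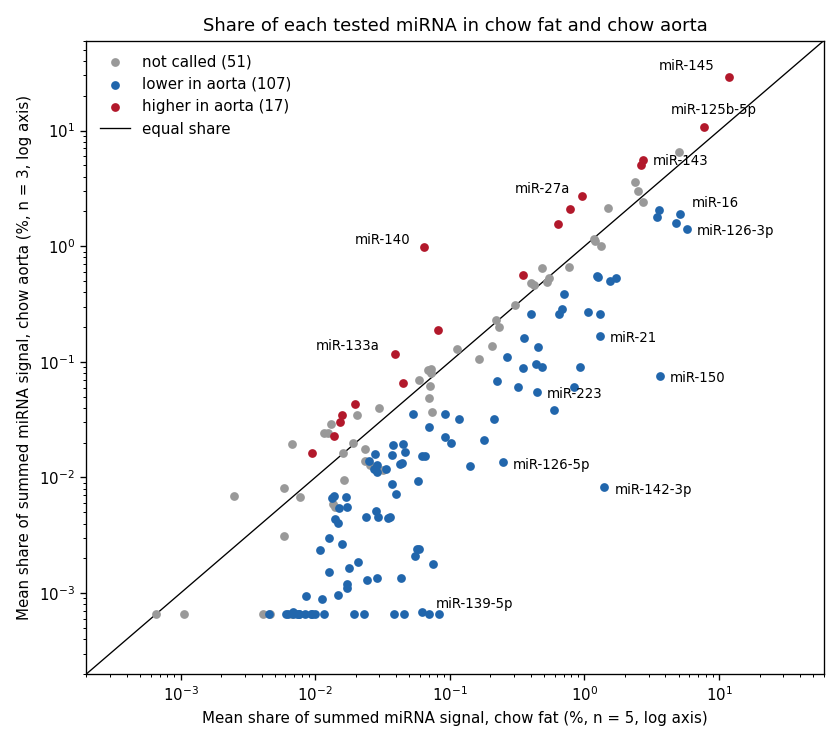
Mean share of each of 175 tested microRNAs in chow fat (n = 5, horizontal) and chow aorta (n = 3, vertical), both as percent of summed mouse microRNA signal on log axes, with the line of equal share. The 17 called higher in aorta lie above the line and the 107 called lower below it. miR-140 is farthest above it and miR-142-3p farthest below, and the row of points at the bottom holds microRNAs at the floor of the table in all 3 aortas.

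Of the 17 with a higher share, the 3 not yet named were miR-652, miR-31 and miR-204, with log2 differences of 0.94, 0.76 and 0.57 (named after their values were seen). Many of the lower shares were bounds. Of the 107, 50 had no aorta over the limit, 23 had 1 or 2 and 34 had all 8 samples over it. A further count over the whole table found 27 microRNAs over the limit in all 5 fat samples and in no aorta, and 0 with the reverse pattern. Of the 566 mouse microRNAs, 368 were over it in none of the 8 samples. The largest bounded differences included miR-139-5p, which lies in the gene Pde2a. It read 209, 309, 171, 182 and 232 in fat and 2.4, 1 and 1 in the aortas, so its share was at least 4.85-fold lower (adjusted p = 7e-11 on the values as deposited). miR-708, within the gene Tenm4, was at least 2.61-fold lower. miR-2132, an entry of doubtful standing as a microRNA, was at least 4.88-fold lower.

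Grouping the 135 matched microRNAs by seed gave 94 families, of which 9 (9.57%) had a higher summed share in aorta and 63 (67%) a lower one, 76.6% in all. Of the 22 families with 2 or more tested members, 1 was higher, 15 lower and 6 not called. The higher one was miR-27a with miR-27b (2.75% ± 1.11 in aorta and 0.968% ± 0.105 in fat, 2.68-fold), which lay above fat under every scaling run. Among the lower families, the miR-17 seed AAAGUGC summed to 0.154% ± 0.037 and 0.801% ± 0.202, 5.14-fold lower, and the seed AGCAGCA to 2.14% ± 0.251 and 6.47% ± 1.69, 2.95-fold lower. The miR-146 family was 13.7-fold lower and the miR-103/107 family 5.03-fold lower. In these 4 families the median of the members stayed below 0 under every scaling run. The family of miR-193 and miR-193b was the 1 with members called in both directions, and its sum was 3.13-fold lower, at 0.024% ± 0.004 and 0.076% ± 0.015.

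Ratios between 2 microRNAs of a sample are not changed by a factor per sample, though quantile normalization changes them. Of 13 ratios, 8 separated the groups without overlap, each with an exact two-sided permutation p of 0.0357, the smallest possible, and 0.058 after adjustment over the 13, so none passed. The ratio of miR-145 to miR-126-3p was higher in aorta by 3.46 on the log2 scale, an 11-fold change. It was 4.82, 4.33 and 4.01 on the log2 scale in the aortas and 0.26 to 1.73 in fat. The ratio of miR-126-3p to miR-142-3p was higher by 3.75 with the 2 aortas in which miR-142-3p was under the limit set to it. As measured it was 0.80 to 6.15 on the log2 scale in fat, where replicate 5 alone exceeded 2.34, and the aortas, at 6.203 or more, lay just above it. The ratio of miR-451 to miR-223 was 1.43 higher. For 3 pairs from common clusters the groups overlapped. The ratio of miR-145 to miR-143 differed by 0.37 (exact p = 0.107), that of miR-27a to miR-23a by 0.49 (exact p = 0.107) and that of miR-27b to miR-23b by -0.17 (exact p = 0.5). The arms of miR-199a (3p to 5p) also overlapped, with a difference of 0.68 (exact p = 0.179). No overlap was seen for miR-133a to miR-1 (1.55) and the arms of miR-126 (2.10, or 1.95 with low values raised to the limit).

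The tissue comparison was repeated in the 3 aortas and 5 fat samples of mice on the 60% fat diet, which share no sample with the chow groups. Both comparisons came from 1 fit with a shared spread and a shared choice of microRNAs, so their calls are not independent. The ligation controls also differed between the tissues on this diet. With the authors' factor taken out they summed to 6729 to 12683 in aorta and 22232 to 38409 in fat. There 13 microRNAs (7.43%) had a higher share in aorta and 106 (60.6%) a lower one, 68% in all. Of the 17 higher on chow, 10 were also called higher and 0 lower on the high-fat diet, and of the 107 lower on chow, 92 were called lower and 0 higher. miR-140 differed by a log2 of 3.97 on chow and 3.82 on high-fat diet, miR-145 by 1.42 and 1.42, miR-143 by 1.05 and 1.28, and miR-126-3p by -2.04 and -2.26. The 7 calls of higher on chow that were not called on the high-fat diet were miR-125b-5p, miR-142-5p, miR-199a-5p, miR-27b, miR-204, miR-31 and miR-652.

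The test of the tissue difference by diet found 4 of 175 (2.29%), with 17 at an unadjusted p under 0.05. miR-335-5p, within the imprinted gene Mest, took 0.0151%, 0.00866% and 0.00446% in the chow aortas and 0.0282% to 0.0975% in chow fat. Its mean in fat on the high-fat diet was 0.481% and in aorta 0.00498%, so the tissue log2 difference was -2.48 on chow and -6.76 on high-fat diet (adjusted p of the change = 0.0043). miR-335-3p and miR-222 were over the limit in none of the 8 chow samples, and their tissue differences were -0.01 and 0.29 on chow and -4.22 and -4.27 on high-fat diet. They were tested only because high-fat samples were over the limit, and their chow differences compare values under it. miR-378 narrowed, from -2.20 to -0.91 (adjusted p = 0.012), with mean shares on high-fat diet of 0.155% in aorta and 0.293% in fat.
miR-335-5p: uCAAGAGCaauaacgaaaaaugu
miR-222: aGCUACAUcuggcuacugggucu
These are shown as examples of the microRNAs called by diet, and miR-222 was under the limit in every chow sample. miR-335-5p lies at chr6:30741314-30741336 on the plus strand and miR-222 at chrX:19146901-19146923 on the minus strand.

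**Figure D5:**
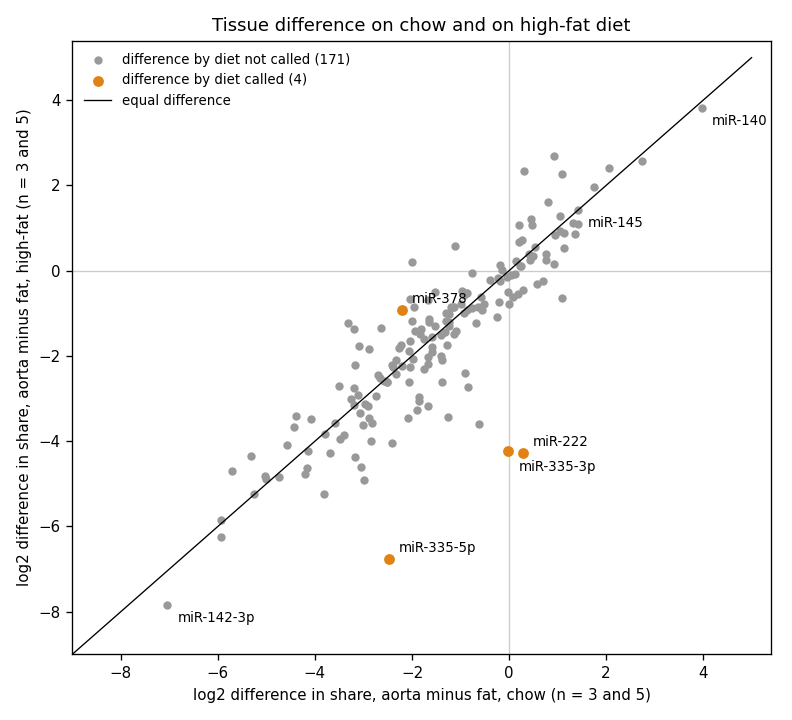
Log2 difference in share between aorta and fat (aorta minus fat) on chow (horizontal) and on the 60% fat diet (vertical) for 175 microRNAs, with 3 aortas and 5 fat samples per diet and the line of equal difference. The 4 microRNAs whose difference changed with diet are in orange, with miR-335-5p, miR-335-3p and miR-222 below the line and miR-378 above it.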

How the data were processed

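The authors deposited 1 table of signal values. Total RNA was labelled with fluorescent barcodes and biotin, per the labels. The low values show background taken off, a lowest value of 1 and 1 factor per sample on all rows but the positive and negative controls. What set that factor, and which tool applied it, is not stated by the labels or the table. Count tests were not applied, since these values are no longer whole counts, and depth is not known beyond the summed signal. As detection limit, 2 SD were added to the mean of 240 negative control values. Those controls were not multiplied by the factor, so the limit weighs differently between samples.

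Groups came from titles. limma 3.58.1 in R 4.3.3 was fitted to log2(value + 1), and for shares to that minus the log2 of the summed mouse microRNA signal, over 4 groups (both tissues, both diets; 16 samples), with Benjamini-Hochberg adjustment over the 175 microRNAs tested. Fold changes on this scale understate low microRNAs. "At least" folds use the mean log2 values with values under the limit raised to it. Profile measures and ratios used exact permutation tests (Python 3.11.15, scipy 1.17.1). Sequences came from RefSeq, matched by name. Of the rows 9 cover several microRNAs and were not split.

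The members and lists were chosen with earlier results of these data known. The microRNAs named were up to 10 higher and 10 lower by size on each scale, the 10 most abundant in each tissue, any lower on signal and higher on share (0 found), up to 4 members of each list by smallest p, all tested cell type markers, up to 10 detected in 1 tissue, those that differed by diet, the members of the ratios and those of 6 seed families. The main fits did not pair samples by replicate number. Deviations from group means of same-numbered aorta and fat correlated at -0.112, -0.136 and 0.0068. Samples of different numbers were not compared in this way, so these values cannot tell whether the numbers mark pairs. The fit on signal was run on simulated data, with the outcome not given here, and shares were not covered. Alternatives were other scalings, pseudocounts, filters, moderation, denominators and leaving out each sample; scaling to the ligation controls, undoing the factor and aorta replicate 1 alone were added after seeing the data.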

Additional observations from a re-analysis of the deposited data

Results flagged for a closer look

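A single fat sample lay far from the other 4 in 8 of 119 values tested, where chance marks about 1 in 20. In fat replicate 4 the share of miR-19a was 0.109%, against 0.0132% to 0.0379% in the others, and that of miR-144 was 0.154%, against 0.0177% to 0.0542%. In fat replicate 3 the share of miR-10b was 0.161% (others 0.217% to 0.235%) and 142 microRNAs were over the limit (others 155 to 160). In fat replicate 1 the share of miR-181a was 0.662% (others 0.472% to 0.505%). In fat replicate 5 the 10 most abundant microRNAs took 60.5% of the signal (others 51.8% to 53.9%), the effective number of microRNAs was 32.9 (others 42.1 to 45.5), and the log2 ratio of miR-126-3p to miR-142-3p was 6.15 (others 0.80 to 2.34).

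The tissue difference in share, chow minus high-fat diet, passed the test of the difference for 4 microRNAs. It was 4.56 on the log2 scale for miR-222, 4.21 for miR-335-3p, 4.27 for miR-335-5p and -1.29 for miR-378. Of these, miR-222 and miR-335-3p were under the limit in every chow sample and were tested only through high-fat samples over it.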

How the results depend on the processing

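Of the 78 share differences of named microRNAs, 42 kept their call in every setting and 9 turned sign, all when values under the limit were set to it, which raises dim aorta shares because aorta totals are smaller: miR-338-3p to 0.54, miR-181c to 0.12, miR-434-5p to 0.38, miR-154 to 0.00027, the row of miR-466a-3p and miR-466b-3-3p to 0.0787, miR-221 to 0.32, miR-146b to 0.13, miR-32 to 0.46 and miR-92a to 0.19. Of 13 signal differences followed, 11 kept their call and 0 turned sign. On signal, the calls higher and lower in aorta were 53 and 54 after centring on the median, 49 and 39 after quantile normalization, 47 and 62 with the top 100, 28 and 58 with the messenger RNA rows, and 11 and 55 (66 in all) with the ligation controls. Those higher were 1 with the positive controls, 1 with the authors' factor undone and 7 with the replicate block, which pairs samples of the same number and diet. Whether these numbers mark pairs is not stated by the labels. The block gave 123 calls in all on signal, 108 on share, 107 on high-fat share, 3 by diet and 63 seed families. On share without the filter, 354 were called, 240 of them higher, since floor values rise when the total falls; high-fat gave 362. Without the top rows in the denominator 40 shares were higher, with values set to the limit 69 were lower, and with aorta replicate 1 alone 7 were higher (cause not tested). Sample weights gave 10 calls by diet (cause not tested). The difference in the log2 ratio of miR-126-3p to miR-126-5p was 1.52 with a pseudocount of 16, and that of miR-150 to miR-142-3p 0.46 with values set to the limit, both because dim values are raised.

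Leaving out each sample in turn gave 119 to 128 signal calls (3 to 4 higher, 116 to 125 lower), 109 to 125 share calls (13 to 17 higher, 95 to 108 lower), 118 to 127 high-fat share calls, 4 to 6 by diet and 61 to 71 seed families. Of the 124 share calls, 107 held without aorta replicate 1 and 119 without fat replicate 5. No paired fit was made for profile measures or ratios, and seed families without the filter were not run, since the families hold tested microRNAs only. With 3 aortas, aortic values near the limit of 29.8 have little precision.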

Other observations

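Among the 59 matched microRNAs over the limit in all 8 samples, the median log2 share difference was 0.75 for the 7 that end in C, -0.57 for the 17 that end in G, -0.996 for the 14 that end in A and -1.13 for the 21 that end in U. Across these 59 the GC content and the log2 share difference had a Pearson r of 0.29 and a Spearman rho of 0.27, and across all 135 matched microRNAs an r of 0.14. MicroRNAs are not independent replicates, and they share the same 8 samples.

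miR-720, an entry derived from a transfer RNA, was among the most abundant in both tissues but spread widely within them. It took 12.1%, 4.01% and 3.26% in the aortas and 3.65%, 4.00%, 5.46%, 10.2% and 1.93% in fat, and its share was not called (adjusted p = 0.57). On the high-fat diet its share was higher in aorta, at 10.8% against 2.21% (adjusted p = 0.0007). Of 8 tested entries of doubtful standing, 5 had a lower share in aorta and 0 a higher one, near the 61.1% lower of all tested. Their median log2 share difference was -1.94, and -1.05 with low values raised to the limit.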
